A study of Homo sapiens with 9 samples.

Results

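The genes described are the nuclear-encoded components of oxidative phosphorylation, measured by RNA sequencing in ES-2 cells, an established line from an ovarian carcinoma, after depletion of IGF2BP1 or SRF. They were chosen by name: protein-coding genes whose symbol begins with NDUFA, NDUFB, NDUFC, NDUFS, NDUFV, UQCR, ATP5 or COX4 to COX8, together with SDHA, SDHB, SDHC and SDHD. The rule used no measured value and found 98 genes among 58174 listed, of which 19799 are protein-coding. Of the 98 genes, 46 were counted with complex I, 4 with complex II, 9 with complex III, 19 with complex IV and 20 with complex V. NDUFA4 and its paralog NDUFA4L2 were counted with complex IV, where the NDUFA4 protein resides. The name rule also takes in 8 complex I assembly factors with NDUFAF symbols and a few paralogs and readthrough genes. ATP5S and ATP5SL, which are not subunits, were counted with complex V by their symbols. In all, 81 of the 98 genes encode a subunit or a tissue isoform of one.

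Oxidative phosphorylation couples the oxidation of NADH and succinate to the synthesis of ATP at the inner mitochondrial membrane. Complex I (NADH dehydrogenase) and complex II (succinate dehydrogenase, also an enzyme of the citrate cycle) pass electrons to ubiquinone, complex III passes them on to cytochrome c and complex IV hands them to oxygen, while complex V (ATP synthase) uses the proton gradient that complexes I, III and IV build. Most subunits are encoded in the nucleus and imported, and the remaining ones are encoded by the mitochondrial genome and made on mitochondrial ribosomes.

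The samples were 3 libraries each of cells transfected with a control siRNA (siC), an siRNA pool directed at IGF2BP1 (siIGF2BP1) or one directed at SRF (siSRF), harvested after 72 h. IGF2BP1 is an RNA-binding protein that stabilizes mRNAs, and SRF is a transcription factor that binds the CArG box. Both knockdowns were made in the same parental line and were compared with the same 3 siC libraries, so that a deviation of siC enters both comparisons. The labels do not say whether replicates were separate cultures, and p-values therefore measure the spread between these libraries, which may be technical. Both knockdowns were also compared directly, which needs no siC library.

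The libraries held from 6421764 to 9416175 reads assigned to genes. The genes of oxidative phosphorylation took 0.815% to 0.901% of these. In siC, siIGF2BP1 and siSRF, the means of IGF2BP1 were 12.8, 4.11 and 14.2 FPKM (a read count scaled by gene length and library size), and those of SRF were 14.5, 6.01 and 1.47 FPKM, so that SRF was low in both knockdowns. Among markers of the cell type, VIM (1055 FPKM) and KRT18 (43.4 FPKM) were high in siC, PAX8 and WT1 were under 0.2 FPKM, and EPCAM was listed at 0 there. PTPRC, ALB and CD3E, markers of leukocytes, liver and T cells, were listed at 0 in every library.

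In siC, 86 of the 98 genes had a mean of at least 1 FPKM, with a median of 23.1 FPKM over all 98 against a median of 7.39 FPKM over the 10419 protein-coding genes of at least 1 FPKM. The level, per length, was very uneven within each complex. ATP5B, which encodes the catalytic beta subunit of ATP synthase, was the highest at 483, 498 and 504 FPKM and made up between 47.6% and 48.4% of the summed FPKM of complex V. The highest gene of complex IV was COX8A, a small subunit, at 226, 255 and 249 FPKM. NDUFS5, an accessory subunit, led complex I at 234, 232 and 229 FPKM, and UQCRH, the hinge protein, led complex III at 179, 168 and 172 FPKM. Complex II had no gene of this height: SDHB, its iron-sulfur subunit, led at 31.4, 30.5 and 28.4 FPKM.

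**Figure D1:**
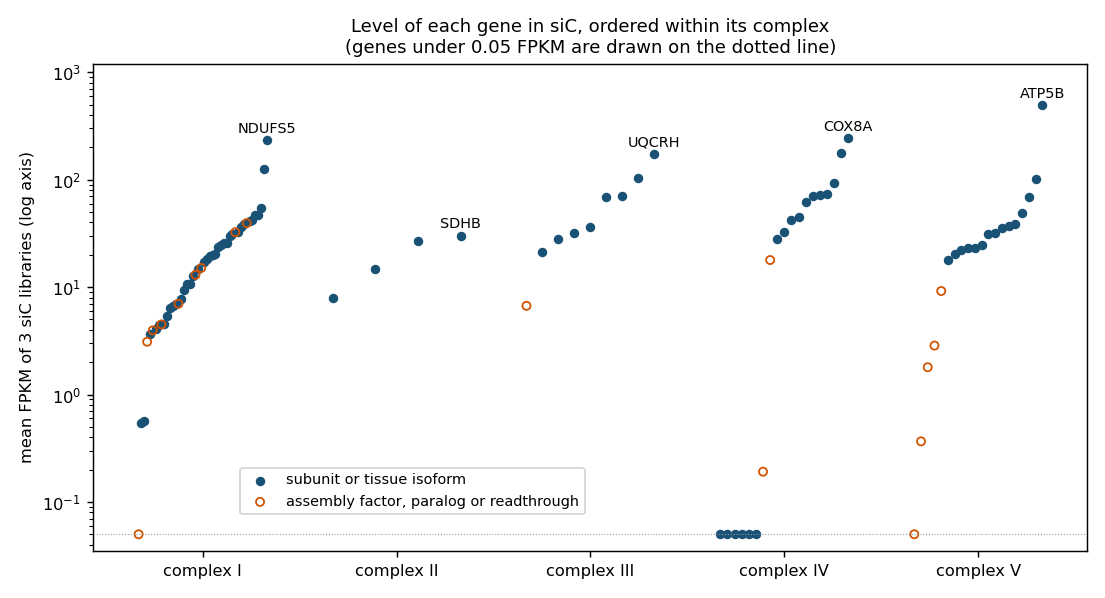
Mean FPKM over the 3 siC libraries (log axis) of each of the 98 genes, ordered by level within its complex, with filled points for subunits and tissue isoforms and open points for assembly factors, paralogs and readthrough genes. ATP5B stands at 495 FPKM, the leading genes of complexes I, III and IV between 173 and 244 FPKM, and SDHB of complex II at 30.1 FPKM.

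Of the tissue isoforms of complex IV, ES-2 cells carried the ubiquitous form. COX4I1, COX6A1, COX6B1, COX7A2, COX7B and COX8A lay between 44.5 and 244 FPKM in siC. Their counterparts COX4I2 (lung), COX6A2 and COX7A1 (heart and muscle) and COX7B2 and COX8C (testis) were listed at 0 in all 9 libraries. With the readthrough gene NDUFC2.KCTD14 these were 6 genes without a read, for which a count of 0 allows up to 3 reads per library, between 0.327 and 0.852 FPKM depending on gene length. COX6B2, the testis form of subunit 6B, had 1 read in 9 libraries, and the readthrough gene ATP5J2.PTCD1 had 4. Of the exon bases of NDUFC2.KCTD14 and ATP5J2.PTCD1, 99.6% and 87.9% also lie in exons of other genes on the same strand. Whether reads there could be assigned to them was not tested, so their counts do not bound their levels. NDUFA4L2, a paralog of NDUFA4 known as a hypoxia-induced gene, took between 0.323% and 1.37% of their summed FPKM in siC, while NDUFA4 took the rest. The 3 genes of subunit c of ATP synthase, which encode the same mature protein, were all present, with ATP5G3 at 45.2% ± 0.288 (SD, n = 3) of their summed FPKM in siC, ATP5G2 at 29.1% ± 2.74 and ATP5G1 at 25.7% ± 2.45.

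Promoter sequences of 76 of the 98 genes were found in RefSeq (GRCh38.p14, from 250 bases before to 50 after the gene start). Short motifs of 3 factors known to act on respiratory genes were searched on both strands, and the CArG box of SRF was searched by its usual consensus. The ETS motif CCGGAAG, which GABP binds, stood in 20 of the 76 promoters (26.3%) against 14.2% of 15843 protein-coding promoters. The NRF1 motif GCGCATGC stood in 15 (19.7% against 4.26%) and the YY1 motif AAGATGGC in 11 (14.5% against 3.91%). The CArG box occurred in 2 promoters (2.63% against 1.21%), those of NDUFB6 and NDUFA7, accessory subunits of complex I. Of the 7 genes called with siIGF2BP1, 4 had a promoter sequence, and that of COX4I1 held an ETS motif. Of the 14 called with siSRF, 11 had one: COX6A1, COX8A, NDUFAF4 and UQCR11 held an ETS motif, COX6A1 and NDUFAF4 an NRF1 motif, ATP5F1 and UQCRC1 a YY1 motif, and none a CArG box. Windows of 30 bases are shown for 5 of these called genes as examples, and for both genes with a CArG box, read in the direction of the gene, with the motif in capitals.
COX4I1, ETS motif on the opposite strand, chr16:85799685-85799714 (gene on the plus strand): cggccttgctctCTTCCGGtcgcgggacac
COX8A, ETS motif on the opposite strand, chr11:63974590-63974619 (plus strand): ccagctccagaaCTTCCGGccagcgcagcc
UQCRC1, YY1 motif, chr3:48609605-48609634 (minus strand): actgcagctggAAGATGGCggcgtccgtgg
NDUFAF4, NRF1 motif, chr6:96897867-96897896 (minus strand): ccctcacttgtGCGCATGCtccgggtgtcc
ATP5F1, YY1 motif on the opposite strand, chr1:111449451-111449480 (plus strand): acttgtgagcgGCCATCTTggtcctgccct
NDUFB6, CArG box, chr9:32573294-32573323 (minus strand): cccacccggtCCTAATTTGGtcgggtatag
NDUFA7, CArG box, chr19:8321458-8321487 (minus strand): tcggggagagCCTTTATAGGacgttctagc
Neither gene with a CArG box was called in a comparison with siC. NDUFB6 was at 28.0, 22.7 and 25.9997 FPKM in siC and 24.4, 25.8 and 21.4 FPKM in siSRF, overlapping ranges, with a log2 fold change of -0.10 (limma adjusted p = 0.557). NDUFA7 had a mean of 7.56 reads per library, and a change was not detectable at this depth. Of its exon bases, 32.5% also lie in exons of another annotated gene on the same strand. A match says only that these letters are present.

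Few of these mRNAs were called after depletion of either protein. With siIGF2BP1, 6 of the 90 tested genes fell and 1 rose. Among all 22292 genes tested, 3.57% fell and 3.55% rose, and among the 10419 protein-coding genes of at least 1 FPKM, 7.07% fell and 6.49% rose. With siSRF, 7 fell and 7 rose, against 5.34% and 6.85% of 21857 genes tested, and 10.2% and 13.3% of 10284 protein-coding genes of at least 1 FPKM. A gene was called when its adjusted p was at most 0.01 by limma on log2(FPKM + 0.1), a scale that understates changes of low genes, and the other 8 genes were under the mean of 0.1 FPKM needed for a test. The shares of 6.67% and 1.11% with siIGF2BP1, and of 7.78% in each direction with siSRF, are close to or below those of expressed protein-coding genes. When the libraries were rescaled by median ratios, siIGF2BP1 gave 4 lower and 2 higher genes and siSRF gave 7 and 5.

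The median log2 fold change of the 90 genes was -0.04 with siIGF2BP1, with quartiles of -0.23 and 0.13, beside a median of -0.02 for expressed protein-coding genes. With siSRF it was 0.06, with quartiles of -0.16 and 0.24, beside 0.04. The latter has no stable sign, being 0.01 after median-ratio rescaling and -0.01 once trends with GC content and length had been removed. The typical spread between replicates was small: the median SD of a gene over 3 libraries corresponded to 7.04% of its level in siC, 6.48% in siIGF2BP1 and 5.84% in siSRF. Of the 83 genes not called with siIGF2BP1, 62 had a 95% interval of the log2 fold change within 0.5 of 0, and of the 76 not called with siSRF, 50 did. Limma called none of the 5 genes with a mean under 10 reads per library (NDUFA3, NDUFA7, NDUFA4L2, ATP5EP2 and ATP5L2) in any comparison. Of these, NDUFA4L2 was at 0.108, 0.367 and 0.0986 FPKM in siC, 0.558, 0.147 and 0.295 FPKM in siIGF2BP1 and 0, 0 and 0.0483 FPKM in siSRF, where siSRF did not overlap either other group. Between siIGF2BP1 and siSRF it had an adjusted p of 0.0443 by limma and of 0.00052 by limma-voom, and ATP5L2 of 0.0485 and 0.0227.

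**Figure D2:**
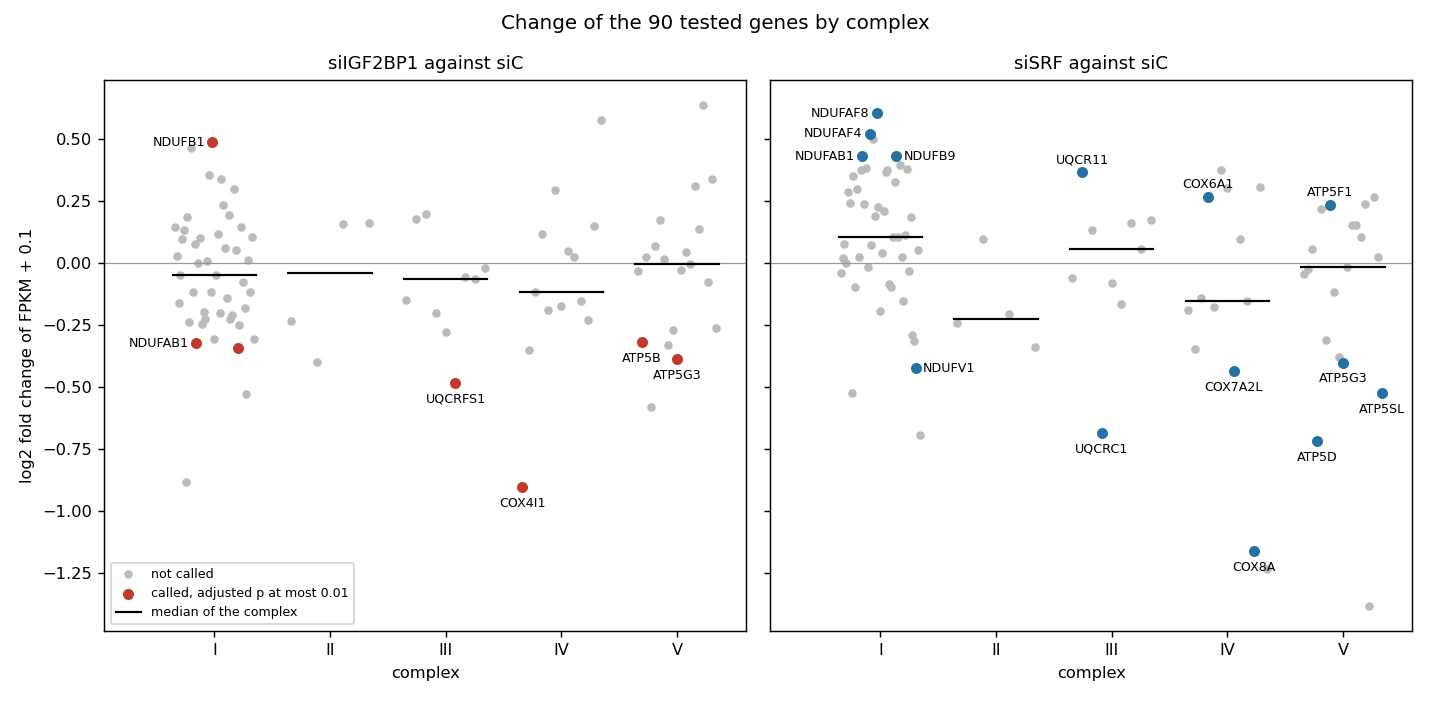
Log2 fold change of FPKM + 0.1 against siC for the 90 tested genes by complex, siIGF2BP1 on the left and siSRF on the right, with coloured points for called genes, named where the text describes them, grey points for the rest and a black line at the median of each complex. The medians lie between -0.22 and 0.11, while the called genes reach -0.90 (COX4I1 with siIGF2BP1) and -1.16 (COX8A with siSRF) and the lowest points with siSRF are ATP5L2 (-1.38) and NDUFA4L2 (-1.23), which have few reads and were not called.

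In complex I, 45 genes were tested. With siIGF2BP1, 2 fell and 1 rose, and with siSRF 1 fell and 4 rose. NDUFAB1, the mitochondrial acyl carrier protein and an accessory subunit, was the only gene of the 90 called in opposite directions. It was at 54.9, 56.7 and 52.1 FPKM in siC, 43.3, 44.04 and 43.6 FPKM in siIGF2BP1 and 76.4, 72.0 and 72.6 FPKM in siSRF. The 3 groups did not overlap, with siIGF2BP1 lowest and siSRF highest. It fell by 0.32 on the log2 scale with siIGF2BP1 (standard error 0.0441, limma adjusted p = 0.00557) and rose by 0.43 with siSRF (standard error 0.0469, limma adjusted p = 0.00173). The gene (ENSG00000004779) lies on the minus strand at chr16:23581014-23596316 (GRCh38).

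Among the 7 core subunits of complex I, which carry its redox groups, 1 was lower in each comparison. NDUFV1, which binds NADH, was at 26.2, 26.9 and 24.7 FPKM in siC and 18.3, 19.3 and 20.3 FPKM in siSRF, where it fell by 0.42 (standard error 0.0576, limma adjusted p = 0.00376). Its siIGF2BP1 libraries overlapped siC. The median of the 7 core subunits was -0.12 with siIGF2BP1 and -0.15 with siSRF.

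Assembly factors of complex I, which are needed to build the enzyme but are not part of it, held 2 of the 4 higher genes with siSRF. NDUFAF8 was at 32.3, 31.5 and 33.6 FPKM in siC, 30.1, 29.3 and 30.4 FPKM in siIGF2BP1 and 46.4, 50.1 and 52.05 FPKM in siSRF. It rose by 0.61 with siSRF (standard error 0.0543, limma adjusted p = 0.000962), with every siSRF library above every other. NDUFAF4 was at 12.4, 13.0 and 13.7 FPKM in siC and 18.4, 19.9 and 17.996 FPKM in siSRF, and rose by 0.52 (standard error 0.0612, limma adjusted p = 0.00224). The 8 factors with NDUFAF symbols had a median of 0.31 with siSRF, 7 of them above 0, and of -0.06 with siIGF2BP1. The siSRF median was 0.15 with GC content and gene length trends taken out. ATP5SL, named DMAC2 in GENCODE 44 and counted with complex V, is not among these 8. It was called lower with siSRF (-0.52, limma adjusted p = 0.00478).

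Among the 30 accessory subunits, NDUFB1 rose with siIGF2BP1, from 19.3, 19.3 and 21.0 FPKM in siC to 26.5, 29.5 and 27.7 FPKM (log2 fold change 0.49, standard error 0.0608, limma adjusted p = 0.00398). In siSRF it was at 22.8, 24.8 and 22.2 FPKM, between both other groups (limma adjusted p = 0.0404). NDUFB9 was at 46.2, 46.3 and 47.96 FPKM in siC and 61.5, 61.05 and 67.3 FPKM in siSRF, where it rose by 0.43 (standard error 0.0498, limma adjusted p = 0.00216). NDUFS5, the highest gene of the complex, differed little, at -0.08 with siIGF2BP1 (95% interval -0.19 to 0.04) and -0.03 with siSRF (-0.15 to 0.09). Leaving out 1 library, which also lowered the number of calls over all genes tested, ended some of these calls. NDUFAB1 and NDUFB1 with siIGF2BP1 were kept only without siC replicate 3, NDUFAB1 and NDUFAF4 with siSRF were lost without siSRF replicate 1 or 2 (limma adjusted p up to 0.0125), NDUFB9 without siC replicate 1 or those same siSRF libraries, and NDUFV1 without siC replicate 1 or 2 or siSRF replicate 1 or 2 (up to 0.0214). Taking out trends along GC content and gene length ended the siSRF calls of NDUFAF4 (0.26, limma adjusted p = 0.0416), NDUFB9 (0.29, limma adjusted p = 0.0162) and NDUFV1 (-0.22, limma adjusted p = 0.0297), and median-ratio rescaling ended that of NDUFAB1 with siIGF2BP1 (limma adjusted p = 0.0114).

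None of the 4 genes of complex II passed the limma test against siC, where an unadjusted p under 0.05 was reached by 2 with siIGF2BP1 and 3 with siSRF, and limma-voom, run on read counts, called 1 and 2. SDHA, the flavoprotein that oxidizes succinate, was at 14.4, 15.5 and 14.4 FPKM in siC, 13.0, 11.95 and 12.8 FPKM in siIGF2BP1 and 12.6, 11.5 and 13.3 FPKM in siSRF. Both knockdowns lay under every siC library, with log2 fold changes of -0.23 (limma adjusted p = 0.0456) and -0.24 (limma adjusted p = 0.052). SDHB, the iron-sulfur subunit, was at 25.3, 20.8 and 22.5 FPKM in siIGF2BP1, under every siC library, and at 34.4, 31.8 and 30.6 FPKM in siSRF, overlapping siC. Its log2 fold change was -0.40 with siIGF2BP1 (limma adjusted p = 0.0232) and 0.10 with siSRF (limma adjusted p = 0.317).

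The membrane anchors of complex II stood the other way round, higher in siIGF2BP1 than in siSRF. SDHC was at 8.10, 7.503 and 8.32 FPKM in siC, 9.06, 8.52 and 9.13 FPKM in siIGF2BP1 and 6.99, 7.004 and 6.70 FPKM in siSRF. SDHD was at 29.4, 24.2 and 27.8 FPKM in siC, 28.3, 32.1 and 30.7 FPKM in siIGF2BP1 and 22.2, 21.7 and 20.4 FPKM in siSRF. For both anchors siSRF was the lowest group, without overlap with siC, at -0.21 (limma adjusted p = 0.0706) for SDHC and -0.34 (limma adjusted p = 0.0272) for SDHD. In the direct comparison, siIGF2BP1 against siSRF, 3 of the 4 genes were called: SDHB lower (-0.50, limma adjusted p = 0.00505), SDHC higher (0.36, limma adjusted p = 0.00376) and SDHD higher (0.50, limma adjusted p = 0.00135). Without the GC content and gene length trends, SDHB and SDHC were no longer called there (limma adjusted p = 0.0105 and 0.0247), while SDHD was called against siC with siSRF (-0.53, limma adjusted p = 0.0015). SDHD has 3 pseudogenes with a summed 12.7 FPKM in siC beside its own 27.1 FPKM, and SDHA has 3 with 4.89 FPKM beside 14.8 FPKM, so that the assignment of reads to these genes is uncertain.

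In complex III, 1 of 9 genes fell with siIGF2BP1, and 1 fell and 1 rose with siSRF. UQCRFS1, the Rieske iron-sulfur protein, was at 32.0, 31.8 and 30.9 FPKM in siC and 23.6, 21.7 and 22.5 FPKM in siIGF2BP1, to 71.6% of siC (log2 fold change -0.48, standard error 0.0477, limma adjusted p = 0.00178). Its siSRF libraries, at 29.0, 26.4 and 29.1 FPKM, lay between both groups (limma adjusted p = 0.0694). UQCRC1, a core protein that does not carry a redox group, was at 67.9, 72.5 and 70.3 FPKM in siC, 60.7, 58.2 and 64.8 FPKM in siIGF2BP1 and 42.3, 43.7 and 45.1 FPKM in siSRF. It fell by 0.68 with siSRF, to 62.2% of siC (standard error 0.044, limma adjusted p = 0.000436), and no group overlapped another. The gene (ENSG00000010256) lies at chr3:48599002-48610976 on the minus strand.

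UQCR11, a small subunit of complex III, was at 26.4, 28.7 and 28.5 FPKM in siC and 37.7, 36.6 and 33.7 FPKM in siSRF, where it rose by 0.37 (standard error 0.0596, limma adjusted p = 0.00701). UQCRH, the highest gene of the complex, was at 165, 163 and 172 FPKM in siIGF2BP1 and 206, 192 and 184 FPKM in siSRF, with log2 fold changes of -0.06 (95% interval -0.16 to 0.06) and 0.16 (0.03 to 0.30). The call of UQCRC1 held in 6 of 6 fits that left out 1 library. That of UQCR11 was lost in all of them (limma adjusted p between 0.0109 and 0.0354), and that of UQCRFS1 without siC replicate 1 or siIGF2BP1 replicate 3 (up to 0.014).

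Complex IV held the largest change of called genes in each comparison, in a different subunit each time. COX4I1, the ubiquitous form of subunit 4, was at 68.1, 77.7 and 72.7 FPKM in siC, 39.5, 38.4 and 38.5 FPKM in siIGF2BP1 and 63.1, 65.7 and 62.5 FPKM in siSRF. With siIGF2BP1 it fell by 0.90 on the log2 scale, to 53.3% of siC (standard error 0.0558, limma adjusted p = 0.000442), and its libraries lay under all others. With siSRF it was at 87.6% of siC, a log2 difference of -0.19 (95% interval -0.33 to -0.05) that was not called (limma adjusted p = 0.0574). The gene (ENSG00000131143) lies on the plus strand at chr16:85798633-85807068.

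COX8A, the ubiquitous form of the small subunit 8, was at 226, 255 and 249 FPKM in siC, 235, 180 and 211 FPKM in siIGF2BP1 and 101, 111 and 115 FPKM in siSRF. It fell by 1.16 with siSRF, to 44.7% of siC (standard error 0.0693, limma adjusted p = 0.000354). The siSRF libraries lay far under all others, while siIGF2BP1 and siC overlapped (log2 fold change -0.23, 95% interval -0.48 to 0.02, limma adjusted p = 0.207). The gene (ENSG00000176340, chr11:63974620-63976543, plus strand) is short, with 507 counted bases and between 365 and 914 reads per library, and 35.4% of its exon bases also lie in exons of another annotated gene on the same strand. Both calls, of COX4I1 and of COX8A, held in 6 of 6 fits with 1 library left out.

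A further 2 genes of complex IV were called with siSRF. COX7A2L, a relative of subunit 7A that takes part in joining complexes into supercomplexes, was at 19.2, 17.9 and 16.5 FPKM in siC, 17.96, 18.001 and 19.5 FPKM in siIGF2BP1 and 12.7, 13.0 and 13.8 FPKM in siSRF, where it fell by 0.44 (standard error 0.0691, limma adjusted p = 0.00645). Its paralog COX7A2, the ubiquitous form of subunit 7A, was at 71.1, 68.1 and 76.0 FPKM in siC and 88.8, 93.6 and 83.6 FPKM in siSRF, above every siC library (log2 fold change 0.31, limma adjusted p = 0.0148). COX7A2L thereby made up between 12.2% and 14.2% of the summed FPKM of the pair in siSRF, against 17.9% to 21.2% in siC and 22.2% to 23.0% in siIGF2BP1. COX6A1 was at 45.2, 44.6 and 43.6 FPKM in siC and 52.9, 56.5 and 51.4 FPKM in siSRF, where it rose by 0.27 (standard error 0.0467, limma adjusted p = 0.00911). That call was lost whichever library was left out and with GC content and gene length trends taken out (0.08, limma adjusted p = 0.324), 2 pseudogenes of COX6A1 have 30.2 FPKM in siC beside its own 44.5 FPKM, and COX7A2L was kept only without siC replicate 3.

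**Figure D3:**
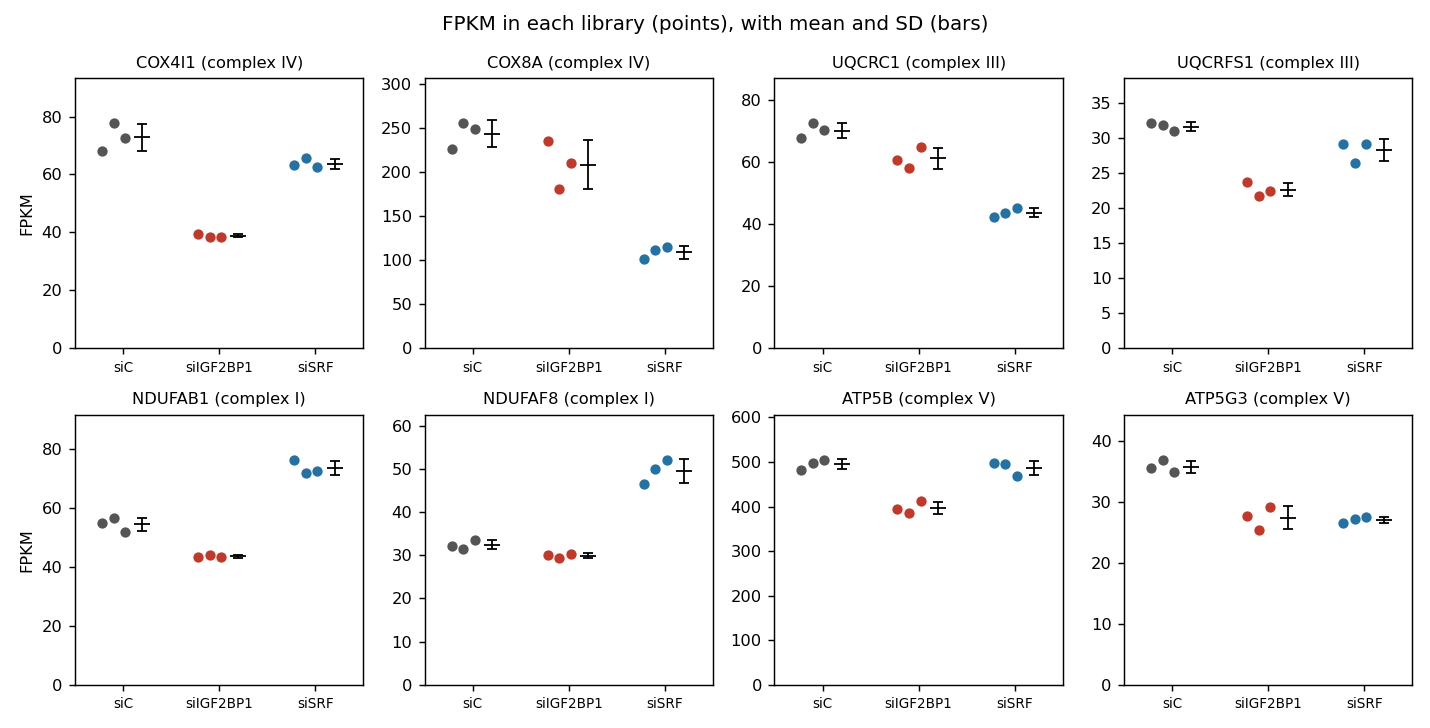
FPKM of 8 genes in each of the 9 libraries (points, axes from 0), with the mean and SD of each group (bars, n = 3). COX4I1 is lowest in siIGF2BP1 (39.5, 38.4 and 38.5 FPKM) and COX8A and UQCRC1 in siSRF, NDUFAB1 lies under siC in siIGF2BP1 and above it in siSRF, and ATP5G3 lies under siC in both.

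In complex V, 2 of 19 tested genes fell with siIGF2BP1, and 3 fell and 1 rose with siSRF. The 3 include ATP5SL, which was counted here by its symbol and is not a subunit. ATP5B, the catalytic beta subunit, was at 394, 385 and 412 FPKM in siIGF2BP1, under every siC library, and fell by 0.32, to 80.2% of siC (standard error 0.0509, limma adjusted p = 0.00934). In siSRF it was at 498, 495 and 468 FPKM, overlapping siC (log2 fold change -0.02, 95% interval -0.14 to 0.09). ATP5G3, a gene of subunit c, was the only one of the 90 that was lower in both comparisons, which share the siC libraries. It was at 35.5, 36.8 and 34.9 FPKM in siC, 27.7, 25.4 and 29.1 FPKM in siIGF2BP1 (-0.39, standard error 0.0607, limma adjusted p = 0.00894) and 26.4, 27.2 and 27.5 FPKM in siSRF (-0.40, standard error 0.0405, limma adjusted p = 0.0014).

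The other 2 genes of subunit c were not called. ATP5G1 was at 18.7, 20.4 and 21.8 FPKM in siC, 17.2, 14.4 and 16.9 FPKM in siIGF2BP1 and 18.4, 18.8 and 18.9 FPKM in siSRF. ATP5G2 was at 24.7, 24.4 and 19.96 FPKM in siC, 20.7, 16.6 and 19.997 FPKM in siIGF2BP1 and 17.7, 17.9 and 17.3 FPKM in siSRF. Their log2 fold changes were -0.33 and -0.27 with siIGF2BP1 (limma adjusted p = 0.0597 and 0.192) and -0.12 and -0.38 with siSRF (limma adjusted p = 0.253 and 0.0262), so that all 6 values of the 3 genes were under 0.

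ATP5D, the delta subunit of the central stalk, was at 33.3, 35.1 and 26.9 FPKM in siC, 24.6, 21.4 and 17.7 FPKM in siIGF2BP1 and 17.4, 18.7 and 21.6 FPKM in siSRF. It fell by 0.72 with siSRF (standard error 0.125, limma adjusted p = 0.00906), and with siIGF2BP1 it also lay under every siC library without being called (-0.58, limma adjusted p = 0.046). ATP5F1, here the b subunit of the peripheral stalk, was at 67.0, 68.6 and 69.9 FPKM in siC and 84.1, 78.3 and 79.6 FPKM in siSRF, where it rose by 0.24 (standard error 0.042, limma adjusted p = 0.00982). ATP5SL, which despite its symbol is not a subunit of the synthase, fell with siSRF from 8.54, 10.04 and 8.995 FPKM to 6.24, 6.36 and 6.47 FPKM (-0.52, standard error 0.0763, limma adjusted p = 0.00478). GENCODE 44 names this gene DMAC2.

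Several calls of complex V were near the threshold. ATP5B and ATP5G3 with siIGF2BP1 and ATP5F1 with siSRF were lost whichever library was left out (limma adjusted p between 0.0198 and 0.0409), ATP5D was kept only without siC replicate 3 and ATP5SL only without siC replicate 1, and ATP5G3 with siSRF was lost without siSRF replicate 2 (limma adjusted p = 0.0102). With GC content and gene length trends taken out, the limma adjusted p was 0.0104 for ATP5G3 with siIGF2BP1, 0.0257 for ATP5D with siSRF and 0.624 for ATP5F1, whose log2 fold change went to 0.03. After median-ratio rescaling it was 0.0111 for ATP5G3 with siIGF2BP1 and 0.0175 for ATP5F1.

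Summed per complex, FPKM values depend on the highest genes to a degree that differed between complexes. Complex V summed to between 1015 and 1043 FPKM in siC, 897 and 942 FPKM in siIGF2BP1 and 1011 and 1048 FPKM in siSRF. Without ATP5B the siC sum was 532 to 545 FPKM and the siIGF2BP1 sum 512 to 533 FPKM, ranges that touch. Complex IV summed to between 932 and 980 FPKM in siC, 792 and 897 FPKM in siIGF2BP1 and 784 and 843 FPKM in siSRF. Without COX8A the siSRF sum was 669 to 731 FPKM against 683 to 734 FPKM in siC, again overlapping, while the siIGF2BP1 sum stayed under siC at 612 to 662 FPKM. Without COX4I1, both the siIGF2BP1 sum (753 to 858 FPKM) and the siSRF sum (721 to 777 FPKM) stayed under that of siC (859 to 902 FPKM), in siIGF2BP1 by little. Complex I summed to between 1160 and 1199 FPKM in siC, 1094 and 1168 FPKM in siIGF2BP1 and 1283 and 1318 FPKM in siSRF, and without NDUFS5 its siSRF sum remained above siC (1061 to 1083 FPKM against 927 to 970 FPKM). Its 8 assembly factors with NDUFAF symbols summed to between 111 and 128 FPKM in siC and 156 and 161 FPKM in siSRF. These sums are given as levels, without a test.

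The direct comparison of both knockdowns called more genes than either comparison with siC. In siIGF2BP1 against siSRF, 13 of the 90 genes were lower and 6 higher. Of all 22311 genes tested, 11.2% were lower and 8.82% higher, and of 10371 protein-coding genes of at least 1 FPKM 21.8% and 15.6%. The shares of 14.4% and 6.67% among the 90 genes are thus under those of expressed protein-coding genes. Median-ratio rescaling moved the split to 9 lower and 9 higher genes, and the median log2 fold change of the 90 genes from -0.10 to -0.03.

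In complex I, 6 genes were lower in siIGF2BP1 than in siSRF: NDUFAB1 (-0.75, limma adjusted p = 4.33e-05), NDUFAF8 (-0.72), NDUFAF4 (-0.72), NDUFB9 (-0.66), NDUFB3 (-0.57) and NDUFS6 (-0.37). NDUFB3, an accessory subunit, was at 36.7, 34.2 and 35.7 FPKM in siIGF2BP1 and 51.8, 54.4 and 52.0 FPKM in siSRF, with siC between them at 45.2, 38.6 and 39.1 FPKM. NDUFB5, also an accessory subunit, was the only gene of complex I that was higher (0.32, limma adjusted p = 0.00638). In complex IV, COX4I1 (-0.71, limma adjusted p = 4.94e-05) and COX7A2 (-0.48) were lower and COX8A (0.93, limma adjusted p = 0.000982) and COX7A2L (0.49) higher. In complex III, UQCRFS1 was lower (-0.32) and UQCRC1 higher (0.49), and in complex V the genes ATP5O, the stalk subunit that links F1 and Fo, ATP5B and ATP5F1 were lower (-0.35, -0.30 and -0.22).

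**Figure D4:**
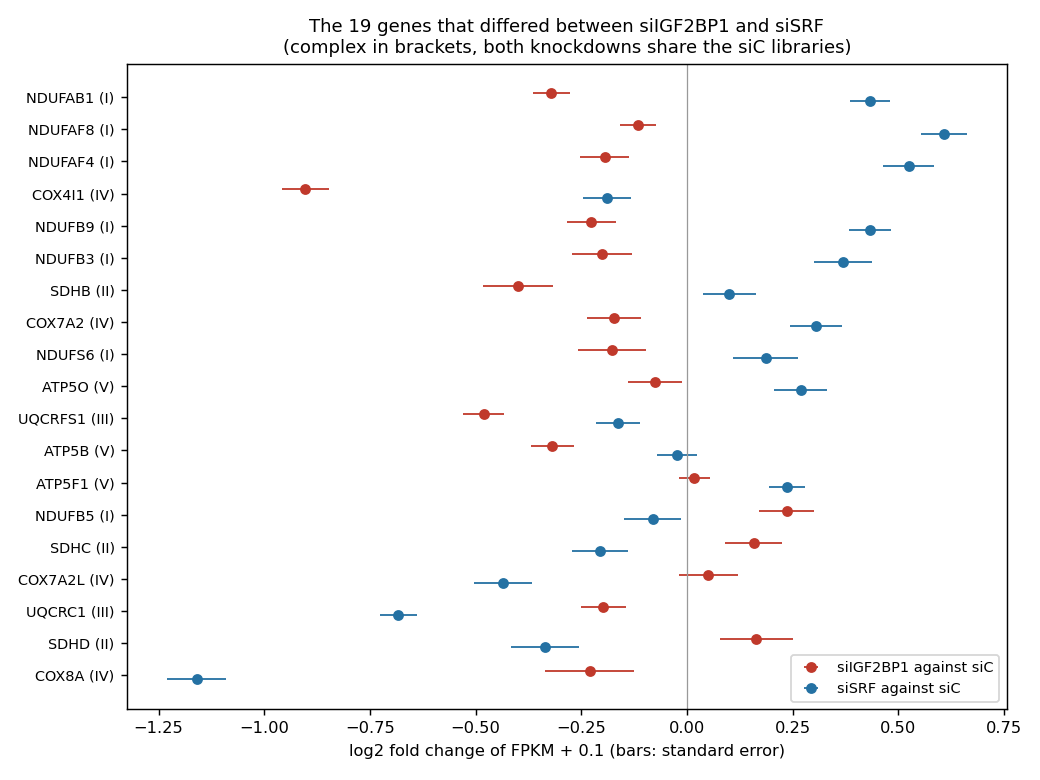
Log2 fold change against siC, with its standard error, of the 19 genes called between siIGF2BP1 and siSRF, ordered by that difference (red siIGF2BP1, blue siSRF). The genes were chosen for the gap between their 2 points, and the largest gaps are those of COX8A (0.93), NDUFAB1 (-0.75) and NDUFAF8 (-0.72).

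Without the GC content and gene length trends, ATP5F1 (-0.09, limma adjusted p = 0.131) and UQCRFS1 (-0.23, limma adjusted p = 0.0309) were no longer called either, and median-ratio rescaling ended the calls of ATP5B, ATP5F1, NDUFS6 and UQCRFS1. Of these 19 calls, 12 held in 6 of 6 fits that left out 1 library, among them NDUFAB1, NDUFAF4, NDUFAF8, COX4I1, COX8A, UQCRC1 and SDHD. ATP5F1 was lost in all 6 (limma adjusted p between 0.0153 and 0.022), ATP5B in 4 and NDUFB5, NDUFS6, SDHB, SDHC and UQCRFS1 in 5, where NDUFB5 was kept only without siSRF replicate 1, UQCRFS1 without siSRF replicate 2, SDHC without siIGF2BP1 replicate 2, NDUFS6 and SDHB without siIGF2BP1 replicate 1, and ATP5B without siIGF2BP1 replicate 3 or siSRF replicate 3.

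Other parts of mitochondrial metabolism were described for comparison. The 13 protein genes of the mitochondrial genome were listed at 0 in every library. As background, these transcripts are abundant in cells that respire, so the 0 may mean that reads on the mitochondrial chromosome were not counted and does not show absence, and the mitochondrially encoded subunits could not be set beside the nuclear ones. Of 5 subunits and partners that the name rule misses, CYCS (cytochrome c) fell with siIGF2BP1, from 43.7 to 28.4 FPKM (-0.61, limma adjusted p = 0.00707), and USMG5, a small subunit of ATP synthase, rose with siSRF, from 109.8 to 164 FPKM (0.58, limma adjusted p = 0.000937). CYC1, the cytochrome c1 of complex III, was at 109.7 FPKM in siC and 81.4 FPKM in siIGF2BP1 (-0.43, limma adjusted p = 0.0159).

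The assembly factors outside the name rule had medians above 0 with siSRF for 3 of 4 groups, and of -0.005 for complexes II and V. With GC content and gene length trends taken out, all 4 medians were above 0. They were then 0.13 for complex IV, 0.47 for complex III, 0.04 for complex I and 0.045 for complexes II and V. Of 25 factors of complex IV, 4 rose with siSRF (16.0%, near the 13.3% of expressed protein-coding genes, median 0.20), among them COX11, COA4 and LRPPRC (0.78, 0.62 and 0.46, limma adjusted p between 0.00263 and 0.00391). Of 6 factors of complex III, LYRM7 (0.83) and BCS1L (0.43) rose and TTC19 fell (-0.56) with siSRF, and of 9 further factors of complex I, ECSIT (0.46) and TMEM70 (0.43) rose and FOXRED1 fell (-0.43). Of 6 factors of complexes II and V, SDHAF3 (1.12) and ATPAF1 (0.48) rose and SDHAF4 fell (-0.73). The shares higher and lower were 22.2% and 11.1% for the complex I factors. They were 33.3% and 16.7% in each of the other 2 small groups. Of expressed protein-coding genes, 13.3% rose and 10.2% fell. With siIGF2BP1, limma called none of these 46 genes, against 7.07% lower and 6.49% higher of expressed protein-coding genes. Limma-voom called 7 of the 46 lower and 2 higher, and an unadjusted limma p under 0.05 was reached by 12 lower and 3 higher.

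The proteins of the mitochondrial ribosome, which translates the mitochondrially encoded subunits, moved further than the respiratory genes. Of 78, 15 fell with siIGF2BP1 (median -0.21), among them MRPS26, MRPS10 and MRPS12 (-0.72, -0.66 and -0.61), and 27 rose with siSRF (median 0.30), among them MRPS18C, MRPL1 and MRPL47 (0.99, 0.86 and 0.76). These shares are 19.2% and 34.6%, against 7.07% and 13.3% of expressed protein-coding genes. In the direct comparison 48 of 78 were lower in siIGF2BP1 (61.5%), against 21.8% of expressed protein-coding genes and 13 of the 90 respiratory genes. Of 82 tested genes of the cytosolic ribosome, 1 was lower and 3 higher with siIGF2BP1 and 4 lower and 9 higher with siSRF, with medians of 0.02 in both.

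Among enzymes of the citrate cycle, 3 of 14 fell with siIGF2BP1 (median -0.28) and 4 with siSRF (median -0.26). These shares are 21.4% and 28.6%, against 7.07% and 10.2% of expressed protein-coding genes. FH (fumarase), which acts on the product of complex II, had means of 49.5, 35.6 and 27.3 FPKM in siC, siIGF2BP1 and siSRF (-0.48 and -0.86, limma adjusted p = 0.00262 and 0.000329), and OGDH was also lower in both (-0.43 and -0.75). IDH2 fell with siSRF from 10.9 to 4.11 FPKM (-1.39, limma adjusted p = 0.000638). Of 18 genes of glycolysis, 3 fell with siIGF2BP1 (16.7%), and 4 fell and 3 rose with siSRF (22.2% and 16.7%). The matching shares of expressed protein-coding genes are 7.07%, 10.2% and 13.3%. ENO2 was lower in both (-1.14 and -0.93), PFKL fell with siSRF (-1.31) and HK2 fell with siIGF2BP1 (-0.40) and rose with siSRF (0.68).

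The regulators of mitochondrial biogenesis were mostly expressed, apart from PPARGC1A and ESRRG, which were under 0.2 FPKM in every group. With siIGF2BP1, TWNK (the mitochondrial DNA helicase) and PPRC1 (a coactivator of the PGC-1 family) fell (-0.52 and -0.41, limma adjusted p = 0.0067 and 0.00467) and YY1 rose (0.30, limma adjusted p = 0.00751). With siSRF, MYC, TWNK and YY1 rose (0.38, 0.41 and 0.31) and ESRRA fell (-0.53, limma adjusted p = 0.0044). NRF1 (-0.29 and 0.28) and GABPA (0.35 and 0.46), whose motifs were searched in the promoters, were not called in either comparison with siC, but between the knockdowns NRF1 was lower in siIGF2BP1 (-0.57, limma adjusted p = 0.00145) and GABPA was not called (-0.11, limma adjusted p = 0.32). The medians of the list were -0.16 with siIGF2BP1 and 0.23 with siSRF. Called lower and higher were 13.3% and 6.67% with siIGF2BP1, beside 7.07% and 6.49% of expressed protein-coding genes. With siSRF these shares were 7.14% and 21.4%, beside 10.2% and 13.3%.

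**Figure D5:**
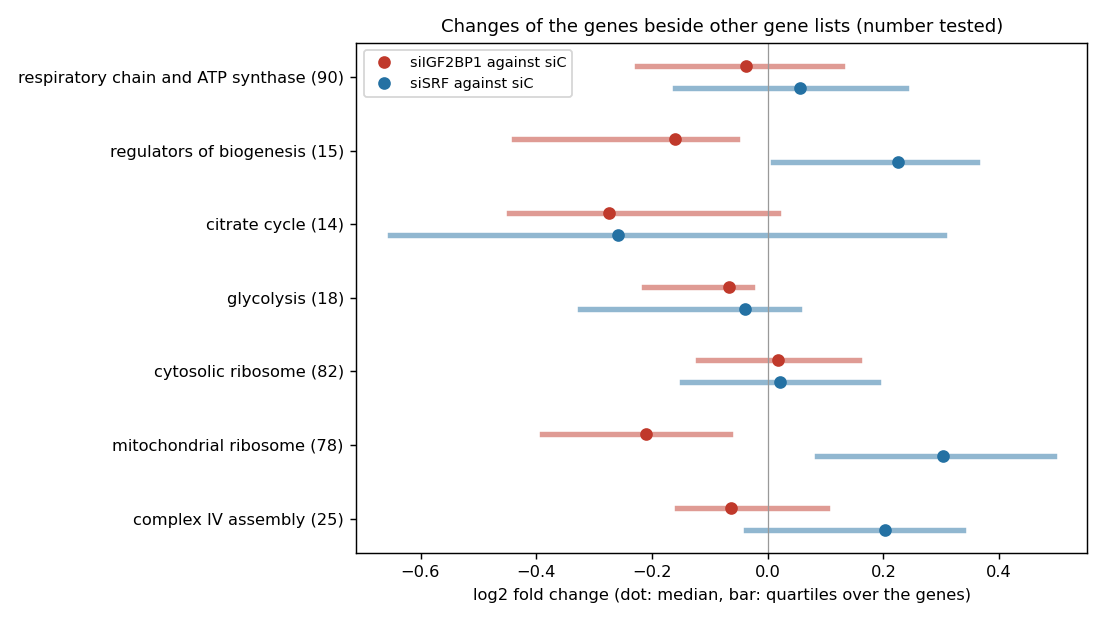
Median (dot) and quartiles (bar) of the log2 fold change against siC over the genes of each list, with the number tested with siIGF2BP1 in brackets, red for siIGF2BP1 and blue for siSRF. The respiratory genes have medians of -0.04 and 0.06, while the mitochondrial ribosome has medians of -0.21 and 0.30.

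Respiratory genes are short and abundant, which bears on how well they were measured. The 90 tested genes had a median counted length of 2508 bases, against 5137 for expressed protein-coding genes, a median GC content of 46.0% against 47.1%, and a median of 472 reads per library against 303. Pseudogenes are common among them: 46 of the 98 genes have 162 pseudogene rows in the same tables, and the part of reads exchanged between a gene and its copies was not tested.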

How the data were processed

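Total RNA of ES-2 cells was depleted of ribosomal RNA and sequenced as directional libraries. The authors clipped reads with cutadapt 1.14, aligned them with HISAT2 2.1.0 to hg38, handled alignments with SAMtools 1.5, counted reads on Ensembl genes with featureCounts 1.5.3 and used edgeR 3.18.1 with TMM factors, per the labels and the study's methods. They deposited FPKM values per library in 2 tables, and the strand setting of the counting is not given in the sources used here. The deposited columns of log2 fold changes, p-values and false discovery rates hold the authors' own comparisons and were not used, and the deposited gene length is in bases. Both tables hold the same siC values. Whole reads were recovered from the FPKM values and lengths (100% of values whole within 0.01 reads). Limma-voom on these reads called 1891 lower and 1914 higher genes with siIGF2BP1, 2343 and 2780 with siSRF and 3630 and 3282 in the direct comparison.

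Groups came from the sample titles. Genes averaging 0.1 FPKM or more across the 6 compared libraries were fitted on log2(FPKM + 0.1) with limma 3.58.1 in R 4.3.3 (trend), with Benjamini-Hochberg adjustment over all of them and calls at 0.01. Standard errors and 95% intervals come from that fit. An exact two-sided permutation test of single genes cannot go below p = 0.1 with 3 libraries against 3, and gave 0.1 for every gene whose groups are said not to overlap. The fits were tested on simulated data.

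The genes and companion lists were chosen with earlier results of these data known. Named are, per complex, comparison with siC and direction, up to 3 called genes with the largest change and no overlap, the SDH genes, paralog sets, the highest gene per complex, and up to 3 called genes per companion list and comparison. Of the genes that this rule names, 1 is not reported here. NDUFB9, the genes of the direct comparison, CYC1, NRF1, GABPA, YY1 with siSRF, and the genes with a CArG box were named after their values were seen. Coordinates and exon overlaps are from GENCODE 44 (GRCh38), a later annotation than the one counted on, and promoters from RefSeq. Alternatives were other pseudocounts (1 and 0.01), filters (none, 1 FPKM) and threshold (0.05), median-ratio rescaling, limma-voom on recovered reads, all 9 libraries in one fit, removal of trends along gene length and GC content, a replicate block, subunits only, and leaving out each library.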

Additional observations from a re-analysis of the deposited data

How the results depend on the processing

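Among the 90 tested genes, the counts of lower and higher genes with siIGF2BP1 (6 and 1) became 11 and 4 at an adjusted p of 0.05 and 11 and 3 with limma-voom on the recovered reads. The higher genes became 2 with a filter of 1 FPKM, 2 with median-ratio rescaling, 2 with the gene length trend taken out and 3 with GC content and length trends taken out. With siSRF (7 and 7) the higher genes became 20 at 0.05, 11 with the 1 FPKM filter and 12 with all 9 libraries in one fit, and limma-voom called 14 lower and 20 higher. The direct comparison (13 and 6) gave 25 and 13 at 0.05 and 21 and 12 with limma-voom. Beside these, limma-voom called 1792 lower and 1718 higher of 12512 protein-coding genes tested with siIGF2BP1. It called 2162 and 2591 of 12381 with siSRF and 3332 and 2830 of 12507 in the direct comparison. At 0.05 the limma counts for these protein-coding genes were 1669 and 1447, 2002 and 2545, and 3349 and 2687. The median log2 fold change of the 90 genes moved from 0.06 to 0.007 with siSRF and from -0.10 to -0.031 in the direct comparison under rescaling, and to -0.006 and -0.058 with both trends taken out, with or without the block. The cause was not tested. With the other pseudocounts, ATP5B with siIGF2BP1 was the only call lost (at 0.01 FPKM).

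With 1 library left out, siIGF2BP1 gave 1 to 3 lower and 0 to 1 higher genes (medians -0.06 to -0.01), siSRF 2 to 8 and 1 to 6 (0.03 to 0.08) and the direct comparison 8 to 10 and 4 to 5 (-0.12 to -0.07). Over all genes tested, these fits called 224 to 329 lower and 212 to 420 higher with siIGF2BP1, against 796 and 792 with all 6 libraries. With siSRF they called 482 to 673 and 464 to 1123, against 1167 and 1498. The direct comparison gave 1577 to 1951 and 1214 to 1455, against 2492 and 1968. Calls were thus fewer over all genes as well. The labels number replicates, but same-numbered libraries did not deviate together (correlations across genes between -0.0438 and 0.0186). Such correlations cannot show whether same-numbered libraries were made together, and the labels do not say. A replicate block, which costs degrees of freedom, left 0 lower and 0 higher of the respiratory genes with siIGF2BP1. It left 2 and 1 with siSRF (COX8A, UQCRC1 and NDUFAF8) and 7 and 3 in the direct comparison. Over all genes tested, the block left 31 lower and 60 higher with siIGF2BP1. With siSRF it left 244 and 257, and in the direct comparison 1203 and 872. The block thus lowered the number of calls over all genes too. With the trends taken out as well, it left 1 and 0, 2 and 1, and 4 and 4 of the respiratory genes. Over all genes it then left 212 and 227, 232 and 279, and 1447 and 1007.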
